A study of Rattus norvegicus with 82 samples.

Results

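The hearts of rats given vinblastine at 0.5 mg/kg were compared with those of rats given vincristine at 0.1 mg/kg, both taken 6 h after the dose. The arrays were chosen by their titles alone, and 11 of the 82 arrays of the series were members: 6 of vinblastine and 5 of vincristine. Each array held total RNA from the heart of a male rat of the strain Wistar (Crl:Wi(Han)), dosed intravenously in 0.9% saline, with 6 rats in each group at each time per the labels, of which 5 vincristine arrays were analysed here. Vinblastine came from Sigma-Aldrich and vincristine from Mayne Pharma. The 6 rats killed 6 h after saline alone serve here as the common vehicle level. Hearts taken at 24 h after the same doses (6 vinblastine, 5 vincristine, 6 saline) and at 6 h after 3 mg/kg of vinblastine or 1 mg/kg of vincristine (6 each) are given for comparison, and the series also holds colchicine, another tubulin binder. The age of the rats is not given in the sources used here. Expression was read on Affymetrix arrays, and the values are the deposited intensities of probe sets on a linear scale, so levels are compared between rats for 1 gene and never between genes. The labels do not say that the saline, vinblastine and vincristine rats were dosed on the same day.

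Vinblastine and vincristine are alkaloids of the Madagascar periwinkle that bind tubulin at the same site and hinder its assembly into microtubules. Their structures differ at the nitrogen of the vindoline unit, which carries a methyl group in vinblastine and a formyl group in vincristine. The lower doses were 0.5 mg/kg of vinblastine and 0.1 mg/kg of vincristine, and the higher ones 3 and 1 mg/kg, so no dose was given of both compounds. What follows compares these 2 dose groups, and the effect of the compound and of its dose cannot be told apart.

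Microtubules are built from alpha- and beta-tubulin dimers and start from rings of gamma-tubulin. In cultured mammalian cells, a rise in unassembled tubulin makes ribosomes that translate tubulin mRNAs recruit TTC5 and SCAPER, which bring the CCR4-NOT deadenylase to these mRNAs, and the mRNAs decay. Microtubules of heart muscle cells also carry transport and bear on the stiffness of the contracting cell.

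Among the 11 arrays, vinblastine replicate 6 stood apart. Its root mean square distance from the median of the other arrays of its group was 0.29 on the log2 scale, 1.89 times its distance to the nearest other group, colchicine 2 mg/kg at 6 h. This ratio was over 1 for 43 of the 82 arrays and over 1.3 for 10, and of the 11 arrays this was the only 1 over 1.3. Vincristine replicates 2 and 3 lay 0.124 apart, the second smallest distance among all 3321 pairs of arrays, while other pairs of that group lay 0.176 to 0.264 apart. The labels list them as separate samples, so both were kept, and calls that are lost with their mean as 1 array are named. Array medians lay between 57.6 and 63.3 over the series. For 13 cardiomyocyte markers the sum ran from 211117 to 232197 in vinblastine hearts, from 198212 to 234283 in vincristine hearts and from 194020 to 242714 in saline hearts.

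Over all genes, few separated the groups. Of 11323 genes tested with limma on all 82 arrays, 7 passed a Benjamini-Hochberg adjusted p of 0.05, which is 0.0618% of those tested, with 5 lower (0.0442%) and 2 higher (0.0177%) in vinblastine hearts. The 5 lower genes were the tubulins Tuba4a, Tubb4b and Tubg1, the endothelial proteoglycan gene Esm1 and the co-chaperone gene Dnajb6. The 2 higher genes were Slc26a10, of a family of anion transporters, and Apol3l1, of the apolipoprotein L family. When only the 11 arrays entered the fit, 12 genes passed (0.106% of those tested), 11 lower (0.0971%) and 1 higher (0.00883%). Of these 12, 5 were among the 7, and the others included 3 further tubulins. The median log2 difference over all genes was 0.02, and 881 genes (7.78%) had an unadjusted p under 0.05, 2.82% lower and 4.96% higher. With vincristine replicates 2 and 3 averaged, 6 of the 7 passed, without Apol3l1, and in the fit of the 11 arrays 9 of the 12 passed, without Dnajb6, Id2 and Maob. Without vinblastine replicate 6, 7 genes passed (0.0618%), and 6 of them were among the 7: Dnajb6 was lost (adjusted p = 0.0769) and Tmem82 gained. Without the 10 arrays whose ratio was over 1.3, picked on the same expression values, 17 passed, all 7 among them. Below, genes that missed the threshold and are named from a list were chosen after their values were seen.

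**Figure D1:**
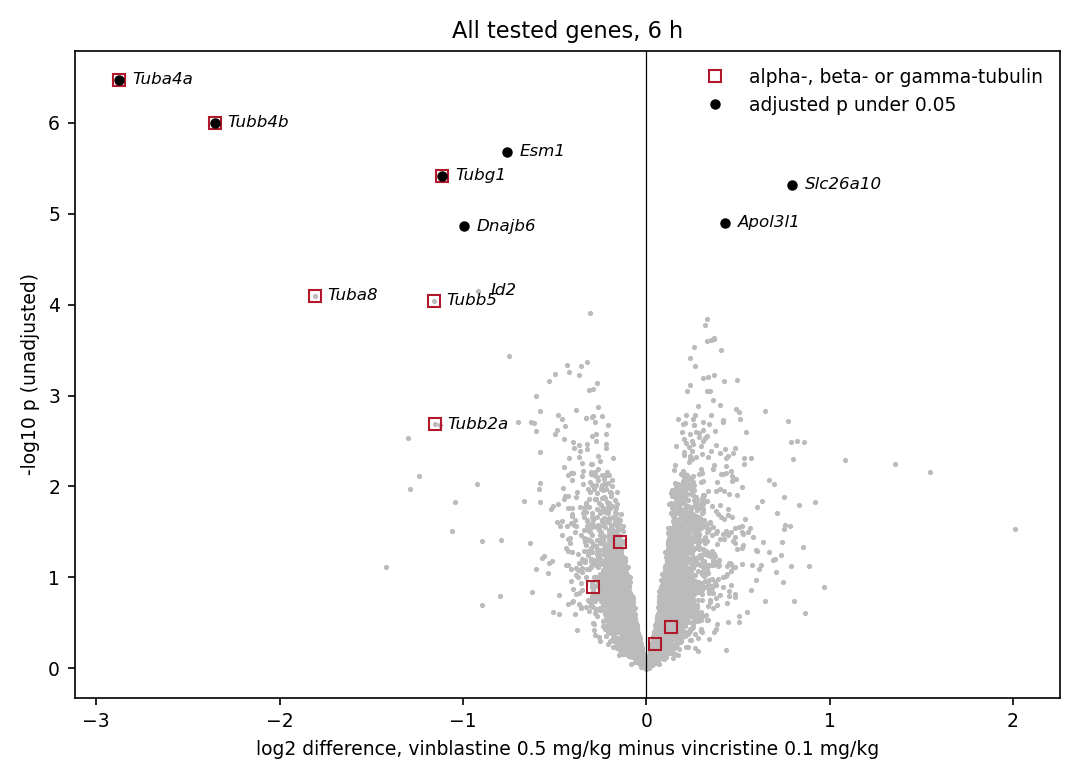
The log2 difference between vinblastine 0.5 mg/kg and vincristine 0.1 mg/kg hearts at 6 h (horizontal) is plotted against -log10 of the unadjusted p (vertical) for each of 11323 genes. Squares mark tubulin genes and black points the 7 genes past the adjusted threshold; Tuba4a at -2.87 and Tubb4b at -2.35 lie farthest to the left.

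The 250 bases upstream of the start of the 3 tubulin genes past the threshold are shown because these genes moved together. They come from RefSeq on build GRCr8, 5′ to 3′ on the strand of the gene, at chr9:84162585-84162834 (minus strand) for Tuba4a, chr3:28438456-28438705 (minus strand) for Tubb4b and chr10:86552893-86553142 (plus strand) for Tubg1. Capitals mark the motifs searched: CCAAT and GGGCGG on both strands (ATTGG and CCGCCC on the other), and TATAAA on the strand of the gene.
Tuba4a: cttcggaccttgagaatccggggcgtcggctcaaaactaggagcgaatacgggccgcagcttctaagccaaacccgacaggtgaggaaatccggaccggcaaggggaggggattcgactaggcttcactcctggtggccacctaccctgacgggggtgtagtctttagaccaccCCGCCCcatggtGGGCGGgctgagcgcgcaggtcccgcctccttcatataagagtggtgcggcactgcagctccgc
Tubb4b: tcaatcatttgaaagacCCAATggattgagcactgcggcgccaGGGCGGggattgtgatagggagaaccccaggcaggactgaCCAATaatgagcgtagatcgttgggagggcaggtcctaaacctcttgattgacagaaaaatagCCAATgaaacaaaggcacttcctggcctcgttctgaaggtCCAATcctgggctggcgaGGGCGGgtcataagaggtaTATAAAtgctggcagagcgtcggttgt
Tubg1: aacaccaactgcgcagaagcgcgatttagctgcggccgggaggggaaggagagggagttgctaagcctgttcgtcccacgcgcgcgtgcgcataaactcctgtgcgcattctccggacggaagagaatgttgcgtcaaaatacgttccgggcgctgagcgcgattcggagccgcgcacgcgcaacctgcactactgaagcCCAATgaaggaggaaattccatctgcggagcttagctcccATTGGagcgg
The 3 stretches held different motifs: 2 GGGCGG matches and none of the others in Tuba4a, 4 CCAAT, 2 GGGCGG and 1 TATAAA in Tubb4b, and 2 CCAAT in Tubg1. Among the 33469 promoters of the same length in the table, 34.0% held CCAAT, 30.5% GGGCGG and 8.1% TATAAA. Of the 10 tubulin genes tested, 9 had an entry, and 5 of these held CCAAT, 5 GGGCGG and 2 TATAAA. These matches describe letters and say nothing of binding.

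The alpha-tubulin gene Tuba4a separated the groups most widely. Its intensity was 741, 725, 817, 744, 740 and 554 in the 6 vinblastine hearts, against 5729, 4806, 5031, 5628 and 5587 in the 5 vincristine hearts. Saline hearts had 5388, 4985, 4962, 6258, 5723 and 4732, so vincristine and saline overlapped throughout and every vinblastine heart lay far below both. The log2 difference between vinblastine and vincristine was -2.87 ± 0.51 (SE of the fit; adjusted p = 0.00386), which is 7.33-fold lower with vinblastine on the log2(intensity + 16) scale. An exact two-sided permutation test over the 11 arrays gave p = 0.00433 (unadjusted), the smallest that 6 against 5 arrays allow. Of the 29 genes named by rule, those without overlap between the groups all reached that value.

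Tubb4b, a beta-tubulin made in most cell types, followed the same pattern. It read 694, 709, 680, 673, 666 and 508 in vinblastine hearts and 3833, 3003, 3084, 3948 and 3207 in vincristine hearts. Vehicle levels were 3570, 3139, 2958, 3994, 3372 and 2802. The 2 treated groups did not overlap, and the log2 difference was -2.35 ± 0.44 (adjusted p = 0.00564), or 5.11-fold lower with vinblastine.

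Tubg1 encodes gamma-tubulin, which nucleates microtubules and is not part of the dimer that these drugs bind. In vinblastine hearts it had 183, 204, 177, 199, 199 and 151, and in vincristine hearts 452, 368, 411, 427 and 435. Saline hearts had 413, 453, 388, 484, 442 and 364, again in the range of vincristine. The log2 difference between the drugs was -1.11 ± 0.22 (adjusted p = 0.0108), or 2.16-fold lower with vinblastine.

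A further 3 tubulins did not overlap between the groups but missed the adjusted threshold when all 82 arrays shared 1 estimate of spread. The alpha-tubulin gene Tuba8 had 653, 659, 634, 639, 726 and 500 in vinblastine hearts, against 2476, 1942, 2088, 2419 and 2374 in vincristine hearts. Its log2 difference was -1.81 ± 0.43 (adjusted p = 0.1, and 4.45e-08 with only the 11 arrays in the limma fit). Tubb5, a widely expressed beta-tubulin, had 477, 552, 517, 581, 527 and 482 in vinblastine hearts, against 1229, 1095, 1085, 1272 and 1251 in vincristine hearts. That difference was -1.16 ± 0.28 (adjusted p = 0.104 in limma on all arrays, and 4.15e-07 on the 11).

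The beta-tubulin Tubb2a spread more among vinblastine hearts, at 506, 427, 434, 441, 332 and 240. Vincristine hearts had 1091, 775, 776, 954 and 832, and vehicle hearts 1084, 969, 770, 864, 670 and 701. The log2 difference of Tubb2a was -1.15 ± 0.36 (adjusted p = 0.299 in limma on all arrays, and 0.00522 on the 11). The contrast itself did not change between these fits. What changed was the spread: in other groups of the series some hearts had low and some high tubulin levels, as given below for 24 h and the higher doses.

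The remaining tubulins tested overlapped between the groups and did not pass. The beta-tubulin Tubb6 had 123 to 192 (median 153) in vinblastine hearts and 175 to 209 (median 178) in vincristine hearts, a log2 difference of -0.29 ± 0.19 (adjusted p = 0.739). Tubb2b had 30.7 to 38.1 in vinblastine hearts and 36.4 to 44.5 in vincristine hearts, a difference of -0.14 ± 0.07 (adjusted p = 0.616). The exact permutation test, unadjusted, gave 0.0303 for Tubb6 and 0.013 for Tubb2b. For Tubb4a, a beta-tubulin known from brain, the difference was 0.05, with a 95% interval from -0.11 to 0.21. For Tubb1, known from platelets and their precursors, it was 0.14, with an interval from -0.15 to 0.43. Tubb3 did not pass the filter on low values.

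**Figure D2:**
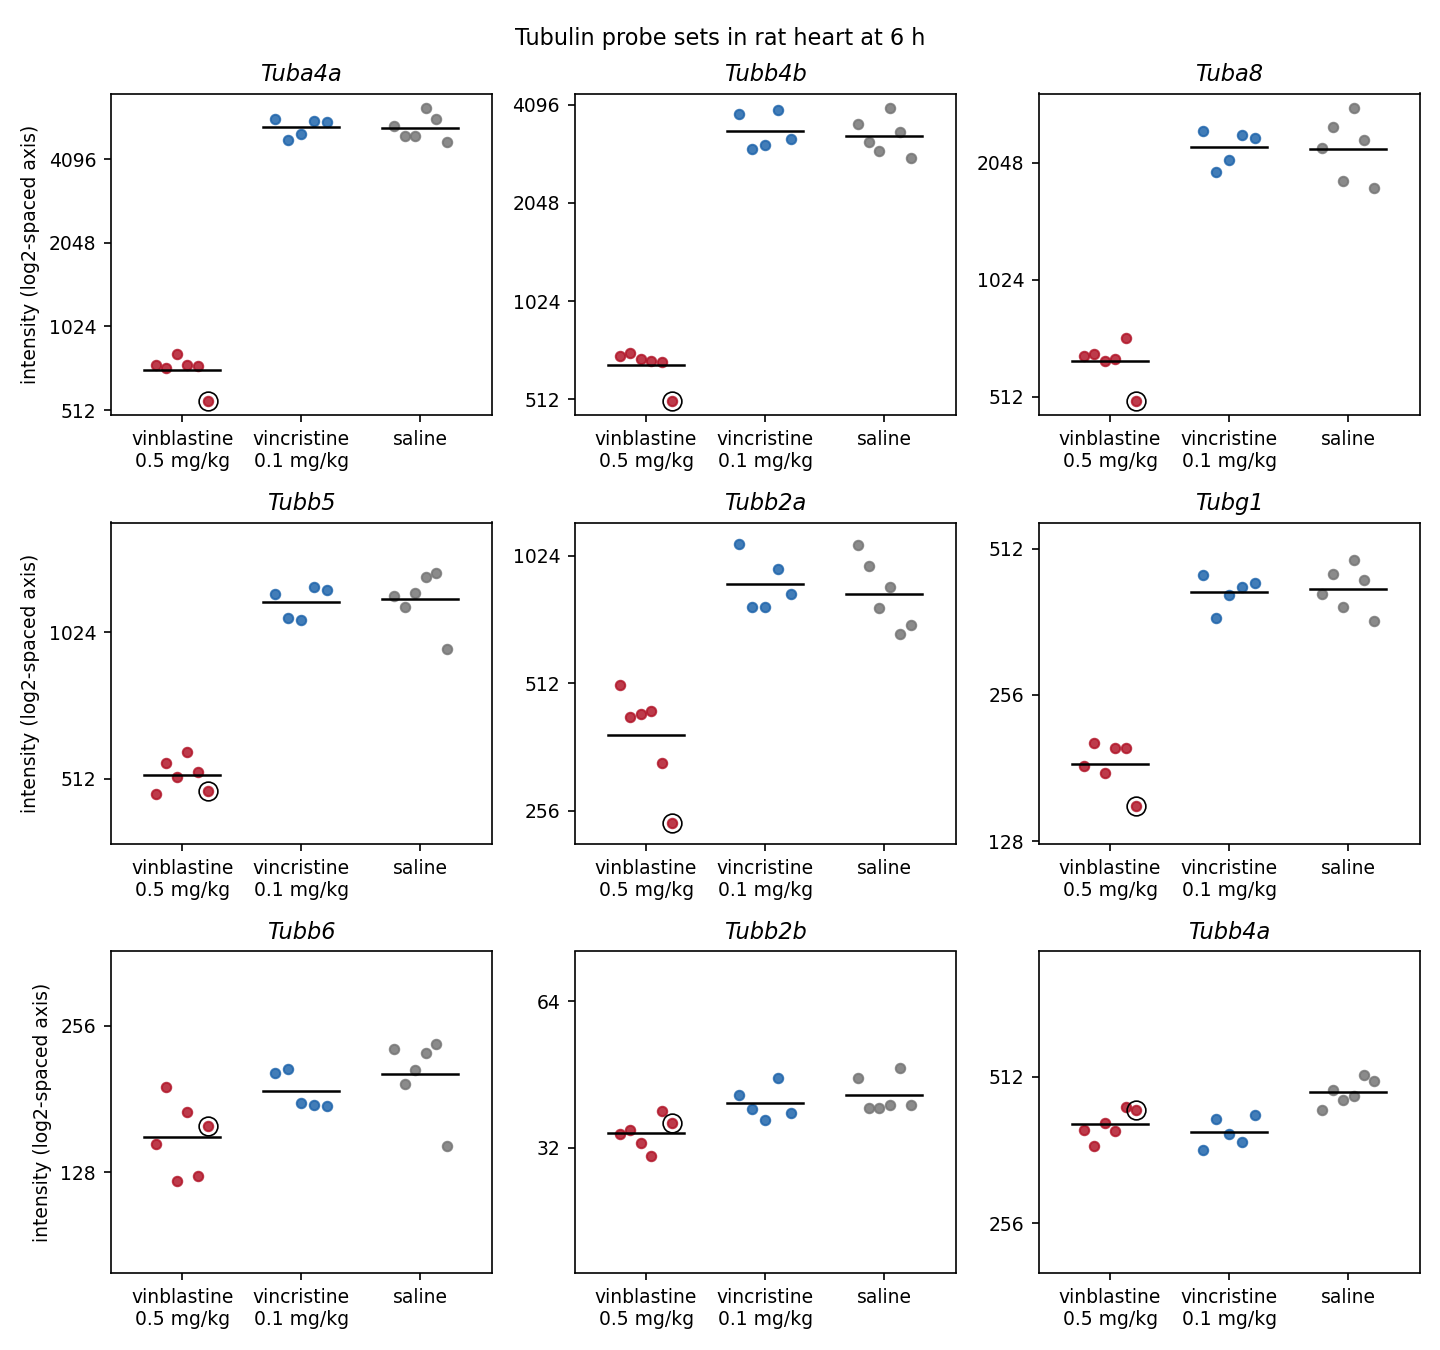
Intensity of 9 tubulin probe sets in each heart at 6 h (log2-spaced vertical axis), with vinblastine 0.5 mg/kg (6 hearts, red), vincristine 0.1 mg/kg (5, blue) and saline (6, grey); bars are means taken on the log2 scale and a ring marks vinblastine replicate 6. For Tuba4a, Tubb4b, Tuba8, Tubb5, Tubb2a and Tubg1 all vinblastine hearts lie under all vincristine hearts, and for Tubb6, Tubb2b and Tubb4a the groups overlap.

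Of the 15 alpha- and beta-tubulin genes listed, 9 were tested. Of these, 2 were lower past the threshold, against 0.0442% of all genes in that direction, and 5 were lower with only the 11 arrays fitted. In 5 of the 9 the groups did not overlap and vinblastine was lower, against 0.609% of all genes tested. Their median log2 difference was -1.15, beside 0.02 over all genes. Without vinblastine replicate 6, which had the lowest Tuba4a, Tubb4b, Tuba8, Tubb2a and Tubg1 of its group, the median was -1.02. A second Tubb5 probe set gave -0.63 (499 ± 105 in vinblastine hearts and 773 ± 88.2 in vincristine hearts, SD, n = 6 and 5). Tubulin genes resemble each other closely, and cross-hybridisation between them was not tested.

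Against saline, the log2 difference of vinblastine hearts was -2.87 ± 0.49 for Tuba4a (adjusted p = 0.00135), -2.31 ± 0.42 for Tubb4b (adjusted p = 0.00313) and -1.13 ± 0.21 for Tubg1 (adjusted p = 0.0042). A total of 4 genes passed in that comparison (0.0353%, with 5.22% at an unadjusted p under 0.05), the other being Polr3b, an RNA polymerase III subunit gene, at 0.3 ± 0.06 (adjusted p = 0.011). Vincristine hearts differed from saline by 0.01 ± 0.51 for Tuba4a, 0.05 ± 0.44 for Tubb4b and -0.01 ± 0.22 for Tubg1. No gene passed in the vincristine comparison with limma (0 of 11323), and 441 had an unadjusted p under 0.05 (3.89%). These comparisons share the hearts already described, so they place the 2 groups beside the vehicle level and are not further evidence.

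Among the rest of the microtubule machinery, listed genes mostly lay close to 0. In the list of gamma-, delta- and epsilon-tubulin and the gamma ring, 1 of 9 tested genes was lower past the threshold, Tubg1 itself, and the other 8, among them the ring members Tubgcp2, Tubgcp3, Tubgcp4 and Tubgcp6, lay from -0.03 to 0.06. None of the 8 subunits of the CCT chaperonin, which folds tubulin, passed, and their median was 0.07. The 11 prefoldin and tubulin cofactor genes had a median of 0.09, with 2 at an unadjusted p under 0.05 (Tbcd at 0.18 and Tbce at 0.16), a direction in which 4.96% of all genes had such a p. Tubulin modifying enzymes (13 tested, median 0.01), microtubule associated proteins (27 tested, median 0.05) and kinesins and dyneins (20 tested, median 0) held no gene past the threshold. Of the 20 kinesins and dyneins, 4 were lower and 1 higher at an unadjusted p under 0.05 (2.82% and 4.96% of all genes). Without vinblastine replicate 6 these counts were the same (2.04% and 4.08%). The lowest genes of the last 2 lists did not overlap between the groups: Tppp3 at -0.51 and the dynein subunit gene Dync1li1 at -0.4. Over all genes, 0.609% were lower without overlap, and these 2 were picked as the lowest of their lists. Tppp3 did not reach an unadjusted p of 0.05 in limma, and its lowest value was that of vinblastine replicate 6 (194).

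In the list of the tubulin mRNA decay machinery, 12 of 13 genes were tested and none passed, with 2 lower at an unadjusted p under 0.05, against 2.82% of all genes. Scaper, which in human cells links the tubulin-recognising factor to the deadenylase, had 202, 205, 221, 192, 203 and 162 in vinblastine hearts, against 273, 257, 258, 310 and 262 in vincristine hearts. The groups did not overlap, and the log2 difference was -0.43 ± 0.12 (adjusted p = 0.217, and 0.0581 in limma on the 11 arrays). Without the 10 arrays of ratio over 1.3, it was -0.38 ± 0.08 (adjusted p = 0.0171 in limma). Those arrays were picked on the same expression values, so nothing is read from that p. Scaper stayed above the threshold under 24 of 26 alternatives, with adjusted p up to 0.563. Ttc5, whose product recognises nascent tubulin in human cells, had 159 to 197 in vinblastine hearts and 169 to 198 in vincristine hearts, with overlap. The deadenylase subunit gene Cnot6 differed by -0.25 ± 0.1 (adjusted p = 0.541).

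Esm1 encodes endocan, a proteoglycan that endothelial cells secrete. Its intensity was 30.1, 32.9, 31.9, 35.4, 44.5 and 24.1 in vinblastine hearts, against 69.7, 69.8, 64.2, 72.8 and 57.3 in vincristine hearts. The vehicle hearts, at 37.6, 48.5, 31.8, 53.8, 64.9 and 62.5, overlapped both groups. The log2 difference was -0.76 ± 0.15 (adjusted p = 0.00788), made up of -0.41 against saline for vinblastine and 0.35 for vincristine, neither of which passed. These intensities are low, beside array medians of 57.6 to 63.3. Over 25 alternatives, other pseudocounts among them, the Esm1 difference ran from -1.01 to -0.43. Other endothelial genes did not pass: of 13 endothelial markers tested, 3 were lower and 2 higher at an unadjusted p under 0.05 (Emcn, Sox18 and Erg lower, Pecam1 and Tie1 higher), against 2.82% and 4.96% of all genes. Without vinblastine replicate 6 it was 3 lower and 1 higher (2.04% and 4.08% of all genes). Their summed level ran from 8141 to 9257 in vinblastine hearts and from 8091 to 9904 in vincristine hearts. Erg, an endothelial transcription factor, differed by -0.32 ± 0.12 (adjusted p = 0.488) with no overlap. In bulk tissue, fewer cells of a type and less RNA per cell cannot be told apart.

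Dnajb6, a co-chaperone of heat shock protein 70 that is known from protein quality control in muscle, had 260, 104, 159, 216, 208 and 156 in vinblastine hearts. Vincristine hearts had 366, 324, 326, 432 and 410, without overlap. The log2 difference was -1 ± 0.21 (adjusted p = 0.0224). Against saline, at 152 to 305 (median 253), vincristine was 0.67 ± 0.21 and vinblastine -0.33 ± 0.2, neither past the threshold. The call of Dnajb6 was lost when vinblastine replicate 2, 3 or 6 or vincristine replicate 1, 4 or 5 was left out (adjusted p from 0.0697 to 0.205).

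Slc26a10 was higher in vinblastine hearts, at 132, 205, 144, 98.8, 134 and 104, than in vincristine hearts, at 99.8, 64.5, 67.5, 67.8 and 55.3. Vinblastine replicate 4 lay just under vincristine replicate 1, so the groups overlapped by that pair. The log2 difference was 0.79 ± 0.16 (adjusted p = 0.011, and 0.0655 in limma on the 11 arrays). Leaving out vinblastine replicate 2, the highest array, gave 0.68 (adjusted p = 0.151), and leaving out vincristine replicate 2 or 5 gave adjusted p of 0.0538 and 0.119. Apol3l1 had 354, 507, 346, 375, 376 and 328 with vinblastine and 257, 255, 258, 309 and 306 with vincristine, without overlap. Its log2 difference was 0.43 ± 0.09 (adjusted p = 0.0224, and 0.149 in limma on the 11 arrays). The call of Apol3l1 was lost without vinblastine replicate 2 (0.35, adjusted p = 0.246), without vincristine replicate 1, 2 or 3 (adjusted p from 0.12 to 0.146), and when vincristine replicates 2 and 3 were averaged (0.4, adjusted p = 0.157).

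Id2, which encodes an inhibitor of basic helix-loop-helix transcription factors, was close to the threshold. It had 356, 244, 202, 256, 331 and 190 in vinblastine hearts and 395, 504, 507, 581 and 525 in vincristine hearts, with saline at 265 to 423 (median 328). As for Esm1 and Dnajb6, the saline mean lay between those of the treated groups, and the log2 difference was -0.92 ± 0.22 (adjusted p = 0.1, 0.0258 in limma on the 11 arrays, and 0.0785 there with vincristine replicates 2 and 3 averaged).

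**Figure D3:**
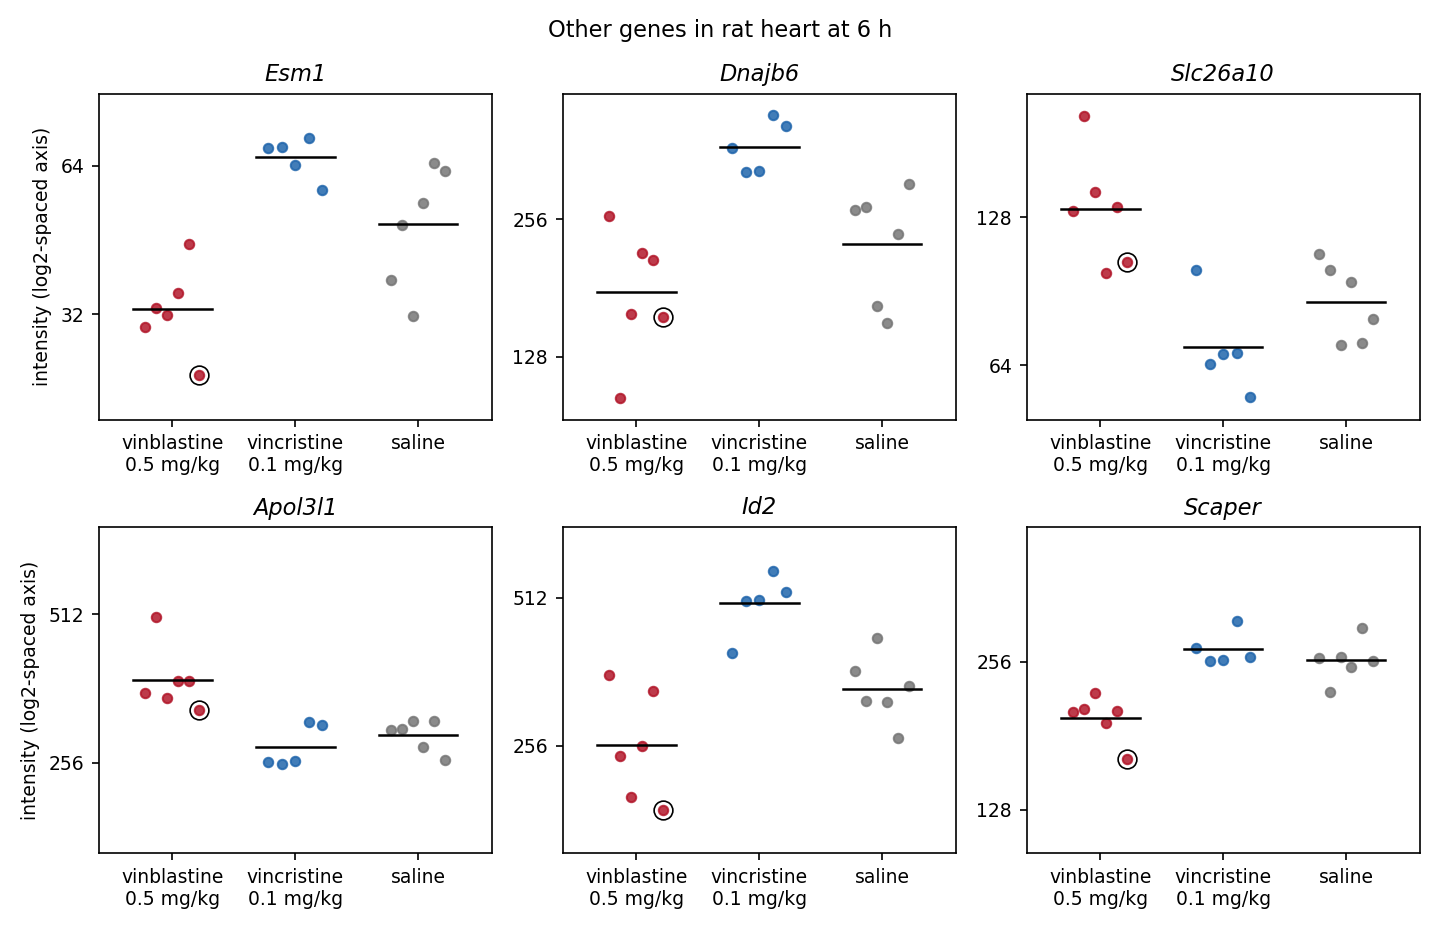
Intensity of 6 genes in each heart at 6 h (log2-spaced vertical axis) with vinblastine 0.5 mg/kg (6 hearts, red), vincristine 0.1 mg/kg (5, blue) and saline (6, grey); bars are means taken on the log2 scale and a ring marks vinblastine replicate 6. For Esm1, Dnajb6 and Id2 the saline mean lies between the means of the treated groups, and for Scaper the saline hearts overlap those given vincristine.

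Of the 29 genes chosen by the naming rule, 16 were lower and 13 higher with vinblastine, and in 17 the groups did not overlap, against 1.59% of all genes. They were chosen by the test on these arrays, so nothing is read from that share. The others did not pass the threshold. The higher ones were Coro1a, a leukocyte actin regulator (0.41), Fcnb, a lectin of neutrophils and monocytes (0.37), Proser1 (0.37), Tmem82 (0.35), the tRNA modifying enzyme gene Dus2 (0.33), Sympk, a scaffold of mRNA 3′ end processing (0.33), the ATP-gated channel gene P2rx1 (0.32), Rtn4rl2 (0.26) and Dnajb12 (0.24). Their adjusted p ran from 0.135 to 0.207. The lower ones were Klhdc7a (-0.75), Cntrl, which encodes the centriole protein centriolin (-0.36), Dact2, a regulator of Wnt signalling (-0.32), and Lrrn4 (-0.3), with adjusted p from 0.127 to 0.217. With only the 11 arrays, 3 genes chosen here after their values were seen also passed. These were Spsb4, an adaptor of a ubiquitin ligase (0.51, adjusted p = 0.0157), the monoamine oxidase gene Maob (-0.61, adjusted p = 0.0286) and the G protein subunit gene Gnb1 (-0.7, adjusted p = 0.0295). Maob was lost when vincristine replicates 2 and 3 were averaged.

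Of the 27 pathway lists, only the 2 tubulin lists held a gene past the threshold, and no cell type list did. Several inflammatory and stress lists had medians above that of all genes, and vinblastine replicate 6 moved with them. For 15 glucocorticoid-induced genes the median was 0.38, and 0.21 without that array. The median of 21 immediate early genes was 0.29, and 0.13 without it. Cardiac stress genes (15 tested) had 0.22 and 0.11, and 15 endothelial activation and coagulation genes 0.22 and 0.12. Single genes show how far that array lay from the others. The TWEAK receptor gene Tnfrsf12a had 1565 in vinblastine replicate 6 against 162 to 219 in the other vinblastine hearts and 113 to 161 in vincristine hearts. The deubiquitinase gene Otud1 had 6844 there and 334 to 654 in the other 5, with 366 to 510 in vincristine hearts. Nppb, which encodes a natriuretic peptide of the strained heart, had 10059 there and 1827 to 2934 in the other 5, with 2394 to 5059 in vincristine hearts. Hearts given vinblastine at 3 mg/kg had 1067 to 1725 for Tnfrsf12a, 2284 to 4731 for Otud1 and 7833 to 11526 for Nppb at 6 h. Replicate 6 thus lay in that range for Tnfrsf12a and Nppb and above it for Otud1. What sets that array apart was not tested. These 3 genes were chosen after their values were seen.

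Interferon-stimulated genes had a median above that of all genes with and without that array. Of 25 tested, none passed, and 8 were higher at an unadjusted p under 0.05, against 4.96% of all genes. Without vinblastine replicate 6 it was 5, against 4.08% of all genes. The median was 0.31, and 0.27 without that array. Isg15, a ubiquitin-like modifier, had 247, 342, 390, 281, 430 and 329 in vinblastine hearts, against 232, 200, 175, 223 and 239 in vincristine hearts and 204 to 317 in saline hearts. The 2 treated groups did not overlap (log2 difference 0.6 ± 0.3, adjusted p = 0.641). Irf9, a subunit of the interferon response factor, differed by 0.41 ± 0.12 (adjusted p = 0.299) and the antigen peptide transporter gene Tap1 by 0.43 ± 0.15 (adjusted p = 0.432).

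Among NF-kappaB and acute phase genes, 18 were tested, none passed, and 5 were higher at an unadjusted p under 0.05, or 3 without vinblastine replicate 6 (4.96% and 4.08% of all genes). Cebpb, a transcription factor of the acute phase, had 260, 449, 325, 354, 241 and 957 with vinblastine and 203, 160, 146, 196 and 164 with vincristine. These did not overlap, and the difference was 1.08 ± 0.38 (adjusted p = 0.404, and 0.165 in limma on the 11 arrays), or 0.82 without replicate 6. In limma on the 11 arrays less vinblastine replicate 6, a setting chosen after the data were seen, Cebpb was among the 28 genes that passed (adjusted p = 0.0241). Icam1, an adhesion molecule for leukocytes, differed by 0.61 ± 0.25 (adjusted p = 0.532). Of 21 chemokine and cytokine genes none passed, and 5 were higher and 1 lower at an unadjusted p under 0.05 (4.96% and 2.82% of all genes). Without vinblastine replicate 6 these counts were 2 and 0 (4.08% and 2.04%). Ccl7, which encodes a monocyte chemokine, differed by 0.54 ± 0.17 (adjusted p = 0.322). Cdkn1a, a cell cycle inhibitor gene induced by p53 and by glucocorticoids, reached 1378 and 1760 in vinblastine replicates 1 and 2 but 420 to 862 in the other 4, against 412 to 529 in vincristine hearts (log2 difference 0.8 ± 0.28, adjusted p = 0.395).

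Markers of blood cells were read beside these lists. Of 12 neutrophil markers, 4 were tested. Their summed level ran from 171 to 1539 (median 244) in vinblastine hearts, against 142 to 164 in vincristine hearts and 140 to 217 in saline hearts. S100a9, a calcium-binding protein gene abundant in neutrophils, had 68.3, 270, 52.7, 124, 93.5 and 1139 in vinblastine hearts and 65.8, 34.4, 37.9, 51.9 and 36.1 in vincristine hearts. The macrophage and monocyte markers (12 tested) summed to 1733 to 2709 in vinblastine hearts and 2224 to 2698 in vincristine hearts. The part of these cells in the shifts of the inflammatory lists was not tested. Other marker lists leaned lower with vinblastine, and none of their genes passed. All 4 red blood cell markers tested were lower (median -0.24, and -0.25 without vinblastine replicate 6). They summed to 9707 to 13745 in vinblastine hearts, 12707 to 14965 in vincristine hearts and 10520 to 16814 in saline hearts. Of 11 fibroblast markers 9 were lower and 2 higher (median -0.15, beside 0.02 over all genes). Atrial markers differed between single hearts. Myl7, the atrial myosin light chain gene, had 39.7 to 369 in vinblastine hearts, against 3460 in vincristine replicate 1 and 51.9 to 316 in the other vincristine hearts, and 3338 in saline replicate 2.

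**Figure D4:**
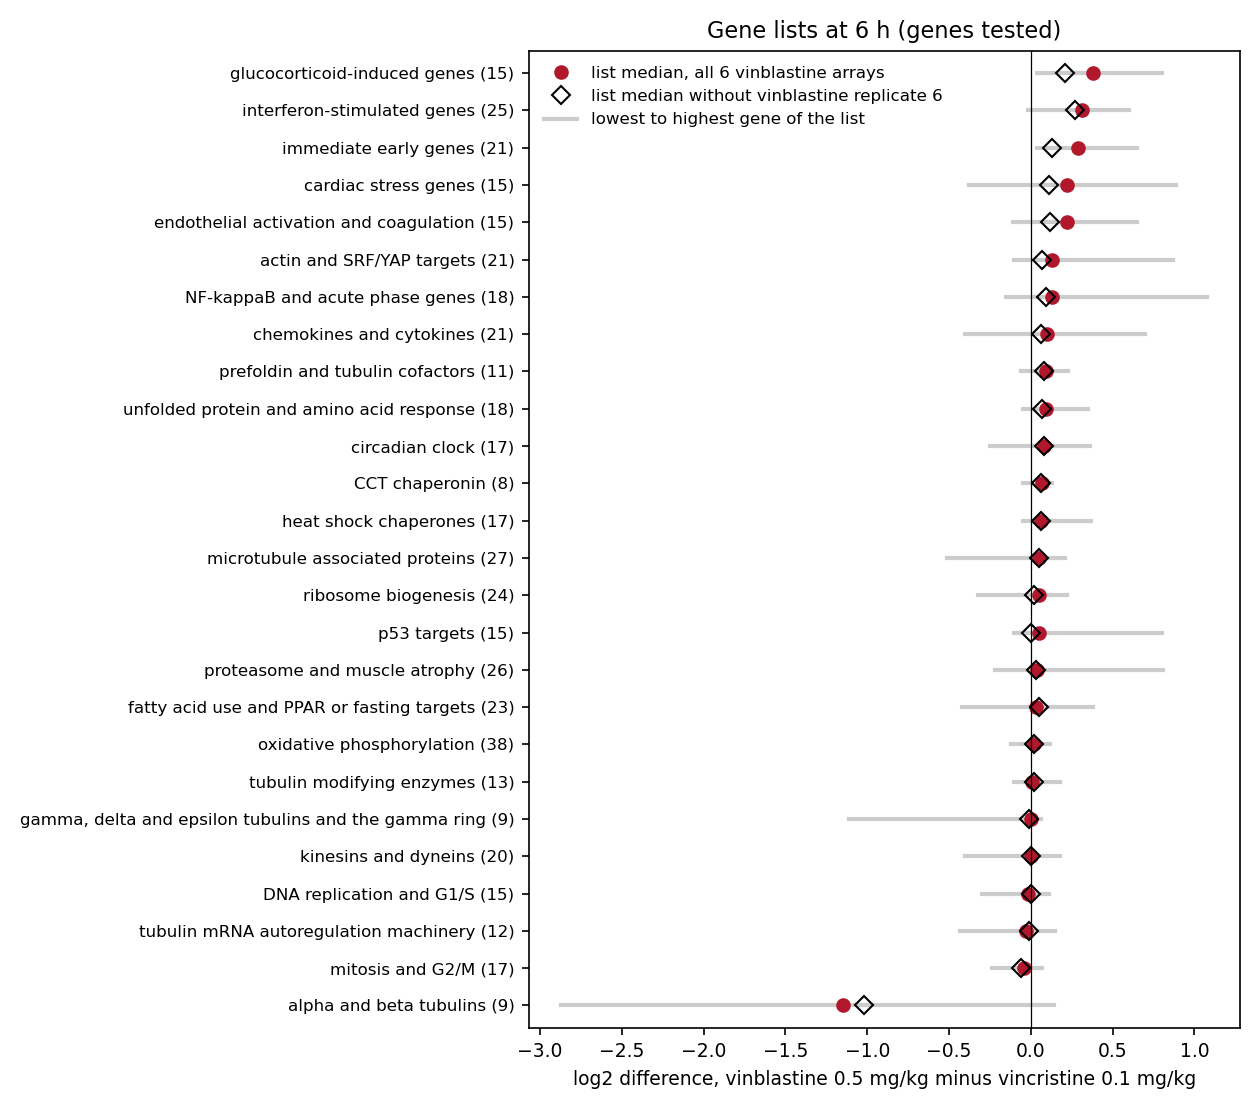
Median log2 difference between vinblastine 0.5 mg/kg and vincristine 0.1 mg/kg hearts at 6 h for each pathway list with at least 5 tested genes (numbers in brackets), with all 6 vinblastine arrays (red points) and without replicate 6 (diamonds); grey lines run from the lowest to the highest gene. The alpha- and beta-tubulins stand at -1.15 and -1.02, while the glucocorticoid, immediate early and cardiac stress medians shrink without that array.

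Lists tied to the energy supply and growth of the heart lay near the median of all genes. Medians were 0.02 for 38 oxidative phosphorylation genes, 0.03 for 23 genes of fatty acid use, -0.04 for 17 mitosis genes and 0.05 for 24 ribosome biogenesis genes. Ppara, the nuclear receptor that drives fatty acid use, differed by -0.42 ± 0.12 (adjusted p = 0.232). Without the 10 arrays it was -0.45 (adjusted p = 0.0155). Heat shock chaperones (17 tested) had a median of 0.06, with Bag3, a partner of small heat shock proteins in muscle, at 0.33 ± 0.1 (adjusted p = 0.249) and no overlap.

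At 24 h, the same doses gave no gene past the threshold between the drugs. With limma 0 of 11323 passed, and 279 had an unadjusted p under 0.05 (2.46%). Tuba4a had 4907, 5641, 2697, 5233, 709 and 5172 in vinblastine hearts, against 6584, 5355, 5417, 5284 and 760 in vincristine hearts, with saline at 2958 to 6881. In each treated group replicate 5 was at the level of the vinblastine hearts of 6 h while most others were in the range of saline. Both of these arrays were among the 10 of ratio over 1.3. Vinblastine replicate 5 lay 0.298 from its own group and 0.157 from colchicine 2 mg/kg at 6 h, its nearest other group. Vincristine replicate 5 lay 0.233 from its own group and 0.165 from colchicine 0.2 mg/kg at 6 h. Whether the labels of these arrays are right was not tested. The difference between the drugs at 24 h was -0.17 ± 0.51 for Tuba4a, -0.13 ± 0.44 for Tubb4b and -0.01 ± 0.22 for Tubg1.

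The change of the drug difference with time was tested as an interaction. For Tuba4a the difference at 6 h minus that at 24 h was -2.71 ± 0.72 on the log2 scale. No gene passed with limma (0 of 11323, with 325 at an unadjusted p under 0.05, 2.87%). Without the 10 arrays of ratio over 1.3, 8 genes passed. They were Tubb5, Tubb2a, Tubb4b, Tuba4a, Tuba8, Tubg1, Fcnb and the transcription factor gene Rfx2. Tuba4a then stood at -2.5 ± 0.37 (adjusted p = 1.71e-05) and Tubb5 at -1.4 ± 0.2 (adjusted p = 9.68e-06). The arrays left out were picked on the same expression values. They hold replicate 5 of both lower-dose groups at 24 h, with Tuba4a at 709 and 760. Leaving them out narrows the tubulin spread and moves the 24 h difference, so nothing is read from these p-values.

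At the higher doses at 6 h, low tubulin levels appeared under both drugs. Tuba4a had 704, 556, 637, 685, 566 and 841 in hearts given vinblastine at 3 mg/kg, against 4038, 508, 5966, 739, 727 and 537 in hearts given vincristine at 1 mg/kg. Of the 6 vincristine hearts, 4 had low values like those of vinblastine, and replicates 1 and 3 stood well above them. Tubb4b and Tubg1 were also highest in these 2 hearts within the vincristine group, with Tubb4b at 2363 and 3389 and Tubg1 at 293 and 406. Replicate 3 lay 0.272 from its own group and 0.148 from saline at 24 h. For replicate 1 the distances were 0.198 and 0.159, the latter to saline at 6 h. Whether the labels of these 2 arrays are right was not tested. In hearts given vinblastine at 3 mg/kg, Tubb4b ran from 430 to 1228 (median 490). No gene passed between the drugs at these doses (0 of 11323 with limma, 1516 at an unadjusted p under 0.05, which is 13.4%).

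The lower-dose difference minus the higher-dose difference was -1.98 ± 0.71 for Tuba4a, and no gene passed (0 of 11323, 639 at an unadjusted p under 0.05, 5.64%). Without the 10 arrays, 7 genes passed in this interaction. They were Tuba4a (-2.34), Tubb4b (-1.73), Tubg1 (-0.94), Tuba8 (-1.36), Fcnb (0.54), the zinc finger factor gene Rreb1 (0.57) and Slc26a10 (0.85). Of the 2 hearts with high Tuba4a in the vincristine 1 mg/kg group, replicate 3 was among the arrays left out and replicate 1 was not, which changes the higher-dose difference in this interaction. The arrays left out were picked on the same expression values, so nothing is read from that count. Doses differed between the compounds at both levels, so these interactions compare pairs of dose groups.

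**Figure D5:**
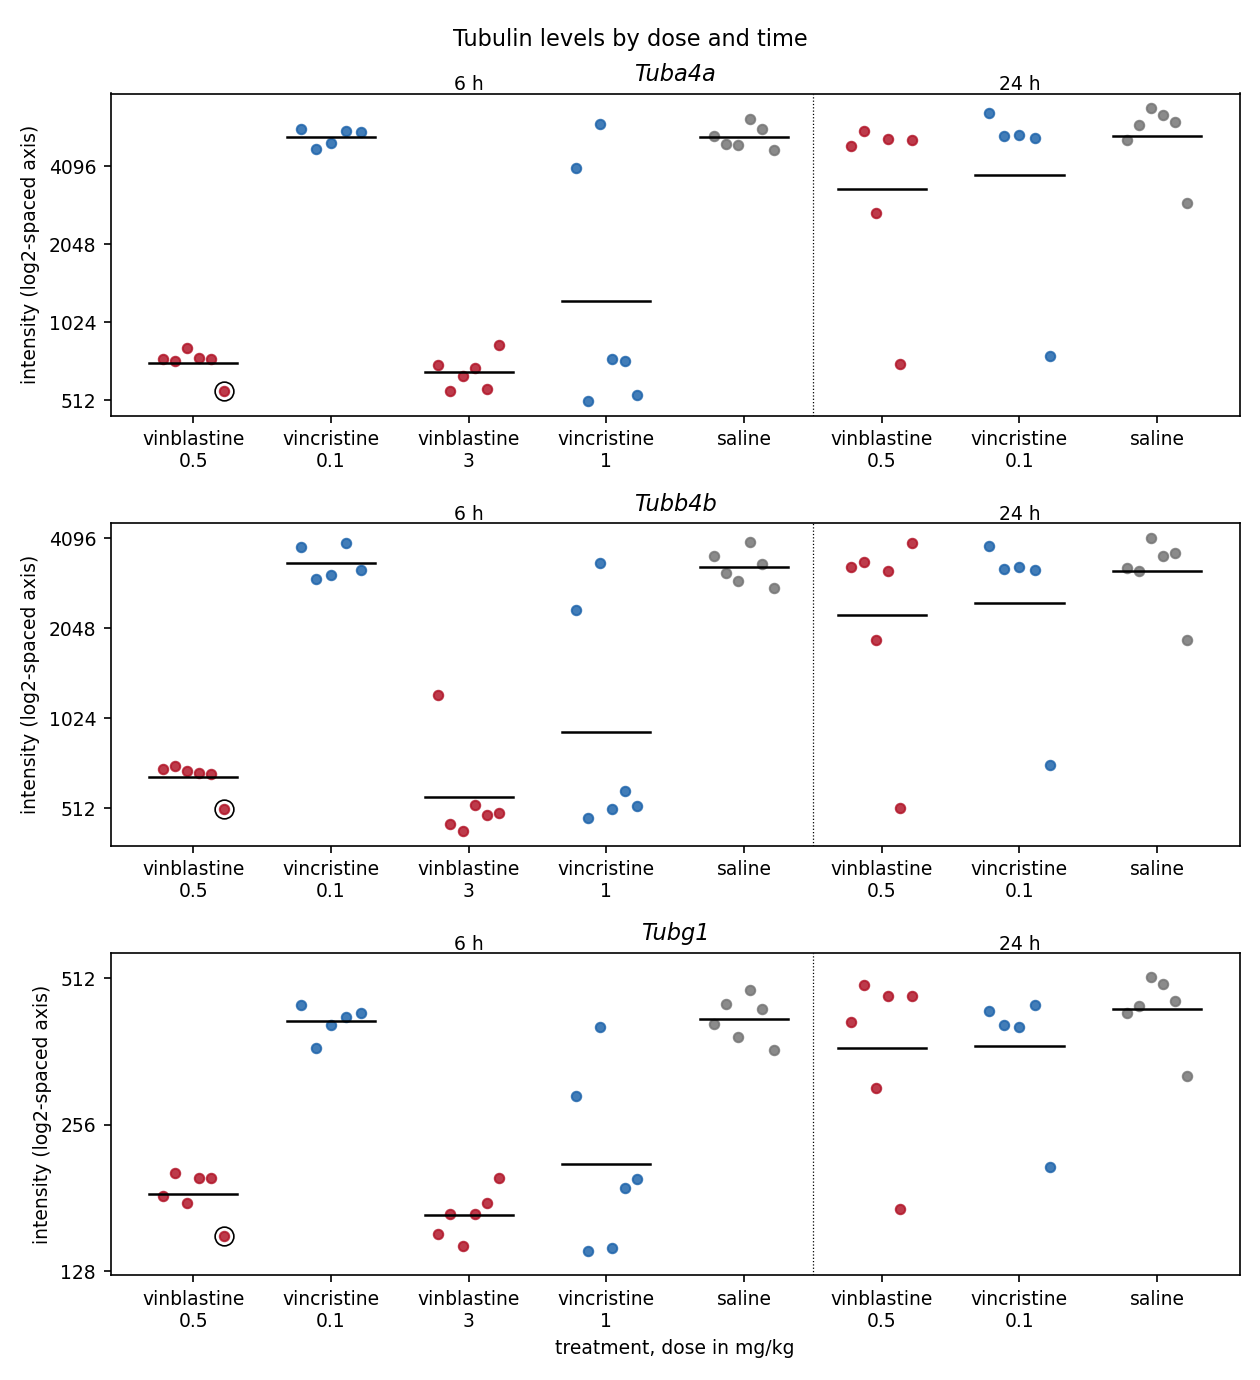
Intensity of Tuba4a, Tubb4b and Tubg1 in each heart (log2-spaced vertical axis) by treatment, with doses in mg/kg, at 6 h left of the dotted line and 24 h right of it; bars are means taken on the log2 scale and a ring marks vinblastine 0.5 mg/kg replicate 6 at 6 h. At 6 h the low group holds both vinblastine doses and 4 of 6 hearts of vincristine 1 mg/kg. Tubb4b reached 1228 in a heart of vinblastine 3 mg/kg, above the median of 490 for that dose. At 24 h, in other rats, 1 heart of each lower-dose group lies near the low group. At 6 h no heart of vincristine 0.1 mg/kg does.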

How the data were processed

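Heart RNA of 82 rats in 14 groups was measured on Affymetrix arrays. The deposited values are intensities on a linear scale, 1 per probe set, with similar medians on all arrays; how the authors summarised the probes is not given in the sources used here. Of 31099 probe sets, 57 were controls and 20826 carried 1 gene symbol in the platform annotation, giving 14217 genes. The probe set with the highest mean stood for its gene. Values were taken as log2(intensity + 16), and genes above the 40th percentile of intensity in 5 or more arrays were tested (11323 genes), so a gene can pass through 1 group alone.

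All 14 groups entered a single linear model in limma 3.58.1 (R 4.3.3), with moderated variances, and p was adjusted by the Benjamini-Hochberg method at a threshold of 0.05. Errors of log2 differences are standard errors of the fit. Single genes were also compared by an exact permutation test over the 11 arrays for 29 genes. The code was tested on simulated data. Arrays have no counts, so their number limits the precision. The p-values of the main fit set each difference against a spread between rats that is pooled over all 14 groups.

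The genes named by rule are up to 12 rises and 12 falls past the threshold, filled to 24 by the smallest unadjusted p, plus every tubulin tested. The comparison, its members and the 40 gene lists were chosen with earlier results of these data known. Alternatives were the pseudocount, filter, normalization, probe set rule, arrays in the fit, array weights and each replicate left out. Leaving out 10 arrays, or averaging vincristine replicates 2 and 3, was chosen after the data were seen. Upstream sequences are RefSeq's, build GRCr8.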

Additional observations from a re-analysis of the deposited data

Results flagged for a closer look

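Among 106 sets of values (a gene in the vinblastine or the vincristine group at 6 h), 15 had a highest or lowest array far from the others by Dixon's criterion. Chance flags about 1 in 20 groups, and several of these genes were chosen after their values were seen.

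Of the 15, 7 were in vinblastine replicate 6. It was lowest for Tuba4a (554), Tubb4b (508), Tuba8 (500) and Tppp3 (194), a tubulin polymerisation promoting gene with 309 to 401 in the other vinblastine hearts. It was highest for Nppb (10059), Otud1 (6844) and Tnfrsf12a (1565).

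In vinblastine replicate 2, Apol3l1 was highest (507) and Stxbp6 highest (1115), while RT1-T24-4, of the major histocompatibility complex, was lowest (20.1). Vinblastine replicate 1 had the lowest Dnajb12 (78.7). Vincristine replicate 1 had the highest Nppb (5059) and RT1-T24-4 (408) and the lowest Stxbp6 (471) of its group. Vincristine replicate 4 had the lowest Cntrl (97.8).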

How the results depend on the processing

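The 7 genes at 6 h became 12 with only the 11 arrays, 3 with only the 41 arrays at 6 h, 23 with array weights, 4 without the 6 arrays whose description ends in _2, 17 without the 10 arrays of distance ratio over 1.3 and 28 with the 11 arrays less vinblastine replicate 6. Leaving out 1 array at a time gave 5 to 10. With vincristine replicates 2 and 3 averaged there were 6, all among the 7. The count at 24 h was 0, and 4 with array weights. The interactions with time and with dose were 0, and 8 and 7 without the 10 arrays; leaving out 1 array at a time gave 0 for each of these 3. The cause of these changes was not tested.

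Tuba4a and Tubb4b passed under each of 26 alternatives (adjusted p up to 0.0497) and Tubg1 under 25, the exception being the 41 arrays at 6 h (0.0579). Esm1 missed under the same setting alone (0.0579). Dnajb6 missed under 9 of 26, Apol3l1 under 10 and Slc26a10 under 6. No direction reversed. Deviations of same-numbered arrays of the 2 groups correlated at 0.293, -0.0213, 0.0867, -0.0614 and 0.385. For vinblastine replicates 1, 3 and 5 the vincristine array of the same number was the best match, and for 2 and 4 it was not. The labels give no pairing, and none was assumed in the main fit. With the replicate number as a block 8 genes passed, all 7 among them. Over all 20540 probe sets passing the filter, 10 passed, 3 of them without a single symbol.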

Other observations

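At least a 2-fold difference was found in 17 genes (0.15% of those tested), 13 lower (0.115%) and 4 higher (0.0353%) with vinblastine, and most of these missed the adjusted threshold. Retsat, which encodes a retinol saturase, had 1752, 657, 656, 823, 1872 and 1686 in vinblastine hearts and 3059, 1368, 1419, 3623 and 3168 in vincristine hearts. Stxbp6 had 302 to 1115 in vinblastine hearts, and in vincristine hearts 471 in replicate 1 and 1152 to 1581 in the other 4. Car3, a carbonic anhydrase gene, had 31.2 to 46.7 in vinblastine hearts, against 237, 37, 34.9, 171 and 141 in vincristine hearts. Vincristine replicates 2 and 3 were alike in each of these genes, as in Adh1c (337 and 320) and Myl7 (52.5 and 51.9).

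The smallest distance among all 3321 pairs of arrays, 0.111, was also between replicates 2 and 3 of vincristine 0.1 mg/kg, in the group taken at 24 h. The acute phase lectin gene Reg3g had 92.6, 108, 87.1, 300, 237 and 598 in vinblastine hearts at 6 h, against 52.8 to 73.4 in vincristine hearts and 45.7 to 129 in saline hearts. Its 2 groups did not overlap (log2 difference 1.36, adjusted p = 0.422).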
